A study of Mus musculus with 8 samples.

Results

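The genes described are 10 members of the Notch pathway, chosen by name from the 21826 genes that had a value in these libraries. They are the receptors Notch1, Notch2 and Notch3, the ligands Dll1, Dll4 and Jag1, the nuclear effector Rbpj, and the target genes Hes1, Hes5 and Hey1. Each member had 1 entry per library, and none of these entries was marked as a failed or low-data estimate. RNA was sequenced from retinas of slc:ICR mice with no transgene or treatment named in the labels. The groups were whole retina at E15 (embryonic day 15) and E18 (embryonic day 18), and cells sorted by the surface enzyme Cd73 at P2, P5 and P8 (postnatal days 2, 5 and 8). Cd73PC are the Cd73 positive cells, which the study uses as rods and cells committed to the rod fate, and Cd73NC are the remaining, Cd73 negative cells of the same stage. Retinas of several animals were pooled for each sort, and each of the 8 conditions has 1 library, so no replicate error exists and no test was run.

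Notch receptors are single-pass membrane proteins that bind Delta and Jagged ligands on a neighbouring cell. After binding, the receptor is cut by an ADAM protease and by gamma-secretase, and its intracellular part enters the nucleus and joins Rbpj and Mastermind proteins at target genes. Hes and Hey proteins, made from these targets, are basic helix-loop-helix repressors that hold back proneural genes. In the developing retina the pathway is known for keeping cells as progenitors, for holding back photoreceptor production, and for its use in Müller glia.

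The letters that Rbpj is known to read can be seen at the start of some of these genes. The RefSeq promoter table (GRCm38.p6) held 8 of the 10 members, all but Hes1 and Hey1. The 250 bases before each start were searched on both strands for GTGGGAA, read as TTCCCAC on the other strand, and for its shorter core TGGGAA, read as TTCCCA, which every GTGGGAA also contains. The longer motif was found in 5.42% of all 32851 windows of this length, and the core in 21.6%. Of the members, Hes5 and Rbpj held the core, and Hes5 held the longer motif 2 times, where 0.161% of all windows held it 2 or more times. Its matches began 226 and 83 bases before the start. Of 3 other pathway genes searched, Hey2 held 1 match that began 207 bases before the start, and Hes6 and Nrarp held 0. In the 3 windows below, Hes5 and Hey2 are shown as targets with a match, and Jag1 as 1 of the 7 members without the longer motif. Capitals mark the longer motif, each sequence runs 5′ to 3′ on the gene's strand, and a match is a run of letters, not a shown binding site.
Hes5, chr4:154960673-154960922, plus strand: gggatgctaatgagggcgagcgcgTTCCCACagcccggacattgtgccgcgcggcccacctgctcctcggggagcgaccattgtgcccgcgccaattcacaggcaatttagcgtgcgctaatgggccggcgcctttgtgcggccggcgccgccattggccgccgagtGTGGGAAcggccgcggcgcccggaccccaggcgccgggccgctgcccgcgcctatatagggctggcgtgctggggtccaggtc
Hey2, chr10:30842784-30843033, minus strand: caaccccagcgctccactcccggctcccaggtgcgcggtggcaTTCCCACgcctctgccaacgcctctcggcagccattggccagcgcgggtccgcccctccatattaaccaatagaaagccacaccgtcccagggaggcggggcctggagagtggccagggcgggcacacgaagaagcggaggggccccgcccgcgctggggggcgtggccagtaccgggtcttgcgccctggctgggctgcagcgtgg
Jag1, chr2:137116521-137116770, minus strand: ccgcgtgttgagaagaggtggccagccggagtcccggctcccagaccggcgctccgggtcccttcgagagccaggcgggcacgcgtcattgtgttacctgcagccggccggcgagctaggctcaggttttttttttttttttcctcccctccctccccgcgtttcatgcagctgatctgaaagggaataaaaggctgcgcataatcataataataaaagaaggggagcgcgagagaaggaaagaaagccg

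Expression is given as FPKM, a fragment count scaled to exon length and to library size, as Cufflinks estimated it for the authors on NCBI37/mm9, with its lower and upper confidence bounds. FPKM is per length, so levels of different genes can be set side by side, and the bounds do not cover how animals vary. Depth relative to E18 ranged from 0.965 to 1.62. The half-width of the bounds was between 2.31% (Notch1 in P5 Cd73NC) and 36.8% (Dll4 in P8 Cd73PC) of their midpoint. For Hes1 in 3 libraries and Hes5 in 7 libraries, the FPKM lay above its own upper bound, so these bounds were used only to ask whether libraries overlap. Ratios were taken on FPKM + 1, which understates the change of weak genes, a gene was tested where either library had FPKM 1 or more, and a difference was called past 1.5-fold, the threshold the study chose. Rod markers were on the side the labels give: all 10 rod genes, with Nrl and Nr2e3 among them, were higher in Cd73PC at all 3 stages. As a percent of Cd73PC, their summed FPKM in Cd73NC was 1.96%, 12.0% and 6.75% at the 3 stages, so the P5 Cd73NC library held the most rod RNA of the negative fractions. In such bulk samples, fewer cells of a type and less RNA per cell cannot be told apart.

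Between the sorted fractions, the receptors, the Delta ligands, Hes1 and Hes5 were lower in Cd73PC at all 3 stages, Rbpj was lower at P5 alone and Hey1 at P8 alone, and Jag1 was higher at P5 and P8. At P2, 7 members were past 1.5-fold lower in Cd73PC and 0 were higher, where 25.0% of the 12335 genes tested were lower and 14.5% were higher. At P5, 8 members were lower and 1 was higher, beside 27.0% and 12.3% of 12230 genes. At P8, 8 were lower and 1 was higher, beside 31.3% and 13.0% of 12364 genes. For each of these calls the fractions had bounds apart, and calls of this kind, in either direction, made up 38.9%, 38.4% and 43.7% of all genes tested at P2, P5 and P8. The median log2 ratio, Cd73PC over Cd73NC, of the members was -0.99, -1.69 and -1.17 at P2, P5 and P8. The median of all genes tested was itself shifted to -0.14, -0.18 and -0.23, and quantile normalization brought it to -0.04, 0.01 and 0.03. Notch1, Notch2, Notch3, Dll1, Dll4, Hes1 and Hes5, 7 of the 10, were lower at all 3 stages, which 13.1% of the 13056 genes with FPKM 1 or more in a sorted library were. Leaving out the P5 libraries, a choice made after the rod RNA in P5 Cd73NC was seen, leaves 7 members, beside 15.0% of all genes. This count could not differ, since these 7 were the only members lower at P2, so it says nothing about the P5 libraries.

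**Figure D1:**
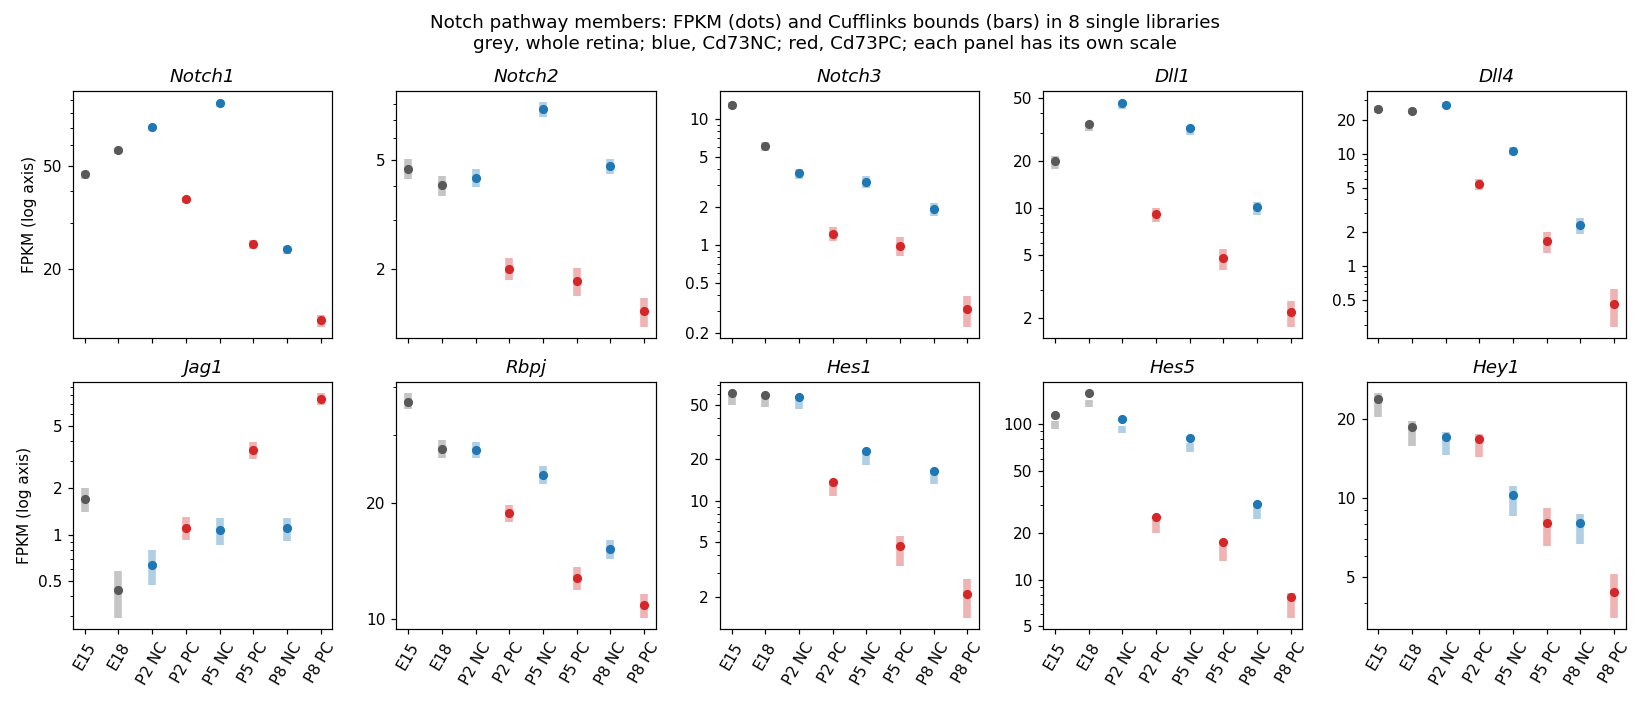
FPKM of each member (dots, log axis, a scale for each gene) with Cufflinks bounds (bars) in the 8 libraries, with NC for Cd73NC and PC for Cd73PC. The red Cd73PC dots step down from P2 to P8 in 9 panels and step up in the Jag1 panel, from 1.11 to 7.52.

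Notch1 (chromosome 2, 26313422 to 26359342) was by far the most abundant receptor. Its FPKM was 46.4 at E15 and 57.7 at E18, 70.5 against 37.4 in Cd73NC and Cd73PC at P2, 87.0 against 25.0 at P5 and 23.9 against 12.7 at P8. It was thus highest in P5 Cd73NC and lowest in P8 Cd73PC, and in the order of its levels the bounds overlapped only between P5 Cd73PC and P8 Cd73NC. The log2 ratio between the fractions was -0.90, -1.76 and -0.86 at P2, P5 and P8, and Cd73PC kept 53.0%, 28.8% and 53.1% of the Cd73NC level. The widest gap between the fractions was therefore at P5, when the Cd73NC level was at its peak while the Cd73PC level had already dropped.

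Notch2 (chromosome 3, 97817461 to 97954290) was present at a far lower level. Its FPKM was 4.64 at E15 and 4.03 at E18, 4.29 against 2.00 in Cd73NC and Cd73PC at P2, 7.64 against 1.80 at P5 and 4.74 against 1.40 at P8. As for Notch1, the single peak was in P5 Cd73NC, but the P8 Cd73NC level was back at 110% of P2, where Notch1 was at 33.8%. The E15, E18, P2 Cd73NC and P8 Cd73NC levels overlapped with their neighbours in order, as did Cd73PC at P2 and P5. Its log2 ratio, Cd73PC over Cd73NC, was -0.82, -1.63 and -1.26 at P2, P5 and P8. FPKM of Notch1 over that of Notch2 was 16.4 in Cd73NC and 18.7 in Cd73PC at P2, and 5.04 and 9.05 at P8, so Notch2 made up more of the receptor RNA at the later stage in both fractions.

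Notch3 (chromosome 17, 32257838 to 32303797) followed another course and was highest before birth. Its FPKM was 12.8 at E15 and 6.05 at E18, 3.69 against 1.23 in Cd73NC and Cd73PC at P2, 3.17 against 0.981 at P5 and 1.93 against 0.310 at P8. The highest level was 41.2 times the lowest, against 6.87 times for Notch1 and 5.46 times for Notch2. P2 and P5 overlapped in each fraction. The log2 ratio between the fractions stayed near -1.1, with -1.07, -1.07 and -1.16 at P2, P5 and P8. Because the values were low, a pseudocount of 0.1 gave -2.31 at P8, and the Cd73PC level there was 16.1% of that in Cd73NC. Of the summed FPKM of the 3 receptors, Notch3 made up 20.0% at E15 and 2.16% in P8 Cd73PC.

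Dll1 and Dll4, the Delta ligands carried by newly formed neurons and cycling precursors, had some of the widest differences between the fractions. The FPKM of Dll1 (chromosome 17, 15504318 to 15512787) was 19.9 at E15 and 34.2 at E18, 46.4 against 9.15 in Cd73NC and Cd73PC at P2, 32.3 against 4.78 at P5 and 10.2 against 2.17 at P8. Each Cd73PC level was below all Cd73NC and whole retina levels, with P2 Cd73PC and P8 Cd73NC overlapping. Its log2 ratio, Cd73PC over Cd73NC, was -2.22, -2.53 and -1.82 at P2, P5 and P8, and Cd73PC held 19.7%, 14.8% and 21.4% of the Cd73NC level. From E15 to E18, Dll1 was the member past 1.5-fold higher (log2 ratio 0.75).

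The FPKM of Dll4 (chromosome 2, 119151520 to 119161402) was 24.9 at E15 and 24.1 at E18, 27.2 against 5.36 in Cd73NC and Cd73PC at P2, 10.6 against 1.67 at P5 and 2.32 against 0.457 at P8. The first 3 of these overlapped, and thereafter the level dropped in both fractions at nearly the same pace: P8 was 8.52% of P2 in Cd73NC and 8.53% in Cd73PC. Cd73PC held 19.7% of the Cd73NC level at P2, 15.8% at P5 and 19.7% at P8. The log2 ratio was -2.15, -2.12 and -1.19, and the smaller value at P8 goes with the added 1, since a pseudocount of 0.1 gave -2.12 there. No other member had so large a span over the 8 libraries, 59.4 times from P8 Cd73PC to P2 Cd73NC.

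Jag1 (chromosome 2, 136907187 to 136942256), the Jagged ligand, ran the other way. Its FPKM was 1.70 at E15 and 0.438 at E18, 0.632 against 1.11 in Cd73NC and Cd73PC at P2, 1.07 against 3.51 at P5 and 1.10 against 7.52 at P8. The P5 and P8 Cd73PC libraries were above all others, and their bounds, 3.07 to 3.94 and 6.82 to 8.13, did not overlap. The log2 ratio between the fractions was 0.37 at P2, within 1.5-fold (0.72 and past it with a pseudocount of 0.1), 1.13 at P5 and 2.02 at P8. Without the added 1, Cd73PC had 175%, 329% and 686% of the Cd73NC level at P2, P5 and P8, and the bounds were apart at each stage. Within Cd73PC the level at P8 was 679% of that at P2, while 25.7% of the 12070 genes tested in that comparison were past 1.5-fold lower and 11.2% were higher.

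Jag1 is also known from blood vessels, so vessel genes were read beside it. The FPKM of the endothelial gene Pecam1 was 0.148, 1.46 and 0.548 in Cd73PC at P2, P5 and P8 and 0.223, 0.813 and 0.562 in Cd73NC. That of Cdh5 was 0.0217, 2.41 and 0.469 in Cd73PC and 0.166, 1.13 and 0.661 in Cd73NC. In Cd73PC both vessel genes and Jag1 had higher values at P5 than at P2, and from P5 to P8 the values of both vessel genes were lower and that of Jag1 was higher. These 2 do not stand for the whole list of 10 endothelial genes. Of those tested, 3 of 3, 2 of 8 and 4 of 5 were lower in Cd73PC at P2, P5 and P8, beside 25.0%, 27.0% and 31.3% of all genes. At the same stages 0, 1 and 0 were higher, beside 14.5%, 12.3% and 13.0%. Esam had 13.0 FPKM in P8 Cd73NC and 2.18 in P8 Cd73PC. The part of vessel cells in the Jag1 values was not tested. The summed FPKM of the 10 endothelial genes was between 17.4 and 46.3 in Cd73PC and between 93.7 and 185 in Cd73NC, and Kdr, which retinal progenitors also express, alone had 29.7, 22.1 and 9.47 FPKM in Cd73PC at P2, P5 and P8. None of the 10 genes was at 0 in any library.

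With Dll3 and Jag2 added, the summed FPKM of 5 ligands shows how their make-up changed. Jag1 made up 0.473% of the sum in P2 Cd73NC and 0.994% and 3.08% in Cd73NC at P5 and P8. In Cd73PC it made up 2.95%, 17.0% and 49.0% at P2, P5 and P8. Dll1, Dll4 and Dll3 together gave way: in P8 Cd73PC they held 14.1%, 2.98% and 13.9%. The sum is one of transcripts, and Dll3 is known as a ligand that acts within the cell and does not activate Notch on a neighbour.

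**Figure D2:**
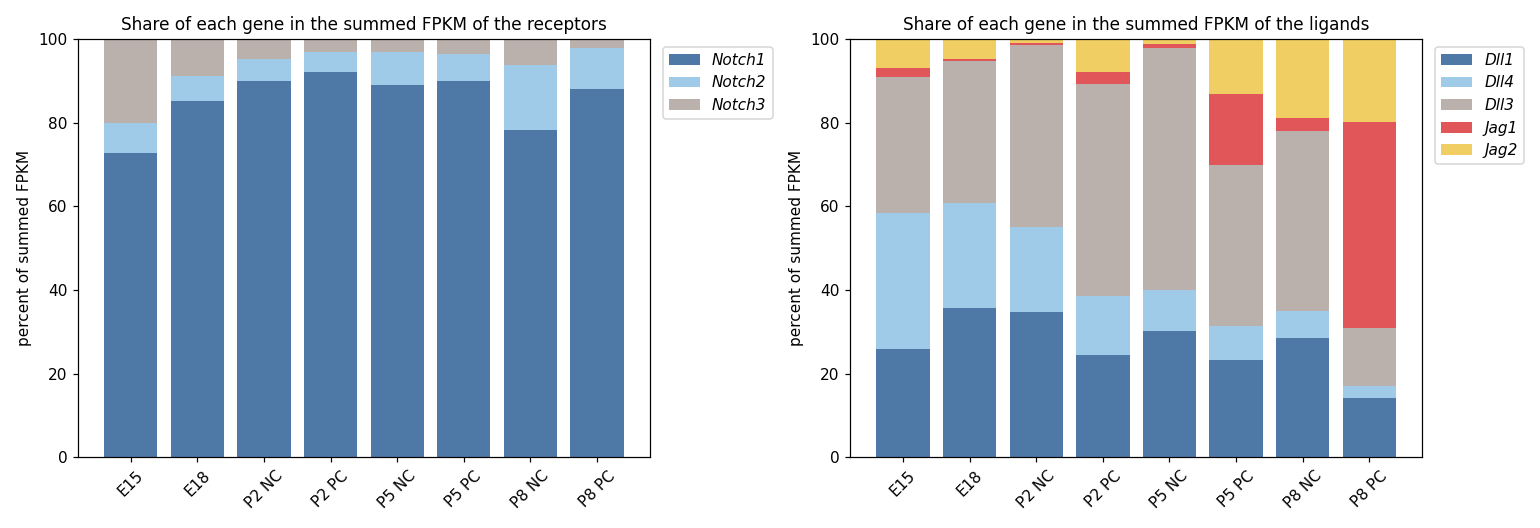
Percent of the summed FPKM of the 3 receptors (left) and of 5 ligands (right) held by each gene in the 8 libraries, with NC for Cd73NC and PC for Cd73PC. Notch1 holds between 72.7% and 92.0% of the receptor sum, and the red Jag1 segment is 2.95% in P2 Cd73PC and 49.0% in P8 Cd73PC.

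Rbpj (chromosome 5, 53947018 to 54048684), the DNA-binding protein that the cut receptor joins, varied least of the 10 members. Its FPKM was 36.6 at E15 and 27.7 at E18, 27.4 against 18.8 in Cd73NC and Cd73PC at P2, 23.7 against 12.8 at P5 and 15.2 against 10.9 at P8. The highest library was 3.37 times the lowest, and only E18 and P2 Cd73NC overlapped among neighbours. Its log2 ratio, Cd73PC over Cd73NC, was -0.52, -0.84 and -0.45 at P2, P5 and P8, past 1.5-fold at P5 alone, although the bounds were apart at all 3 stages. Cd73PC thus retained between 54.0% and 71.5% of the Cd73NC level. The annotation holds 2 further copies of this gene, and reads shared with them could have been split between loci.

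Hes1 and Hes5, target genes whose proteins repress proneural genes, differed between the fractions as widely as the Delta ligands. The FPKM of Hes1 (chromosome 16, 30065443 to 30067882) was 60.4 at E15 and 58.6 at E18, 56.9 against 13.7 in Cd73NC and Cd73PC at P2, 22.9 against 4.66 at P5 and 16.6 against 2.09 at P8. The first 3 of these overlapped in turn, and in Cd73NC the larger drop was between P2 and P5. The log2 ratio between the fractions was -1.98, -2.08 and -2.51 at P2, P5 and P8, and the Cd73PC level as a percent of Cd73NC was 24.1%, 20.3% and 12.6%. The gap was widest at P8, the stage with the lowest level in each fraction.

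Hes5 (chromosome 4, 154335032 to 154336480) had the highest FPKM of the members in 4 of the 8 libraries, and Notch1 had it in the other 4. In P8 Cd73NC the bounds of Hes5 (24.4 to 29.6) and Notch1 (22.8 to 24.6) overlapped. The FPKM of Hes5 was 115 at E15 and 158 at E18, 108 against 25.2 in Cd73NC and Cd73PC at P2, 81.8 against 17.3 at P5 and 30.8 against 7.70 at P8. It peaked at E18, and among neighbours in order only E15 and P2 Cd73NC overlapped. Cd73PC held 23.3%, 21.2% and 25.0% of the Cd73NC level at P2, P5 and P8, with log2 ratios of -2.06, -2.18 and -1.87. The share that remained in Cd73PC was therefore about the same at each stage, while the level in each fraction dropped to 28.4% (Cd73NC) and 30.6% (Cd73PC) of P2 by P8.

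Hey1 (chromosome 3, 8663359 to 8667038), a repressor of the related Hey family, did not share this difference. Its FPKM was 23.8 at E15 and 18.6 at E18, 17.1 against 16.7 in Cd73NC and Cd73PC at P2, 10.2 against 8.03 at P5 and 8.02 against 4.40 at P8. The fractions overlapped at P2 and P5, and at P8 they were apart and past 1.5-fold, though quantile normalization brought the P8 log2 ratio to -0.35, within it. The log2 ratio between them was -0.03, -0.32 and -0.74, and the sign of the first turned under either scaling (0.06 and 0.04). Hey1 was thus the target that the Cd73PC fraction held at P2 to 98.0% of the Cd73NC level, against 24.1% for Hes1 and 23.3% for Hes5. The 3 targets nevertheless all dropped within Cd73PC, with P8 at 15.2% of P2 for Hes1, 30.6% for Hes5 and 26.3% for Hey1.

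**Figure D3:**
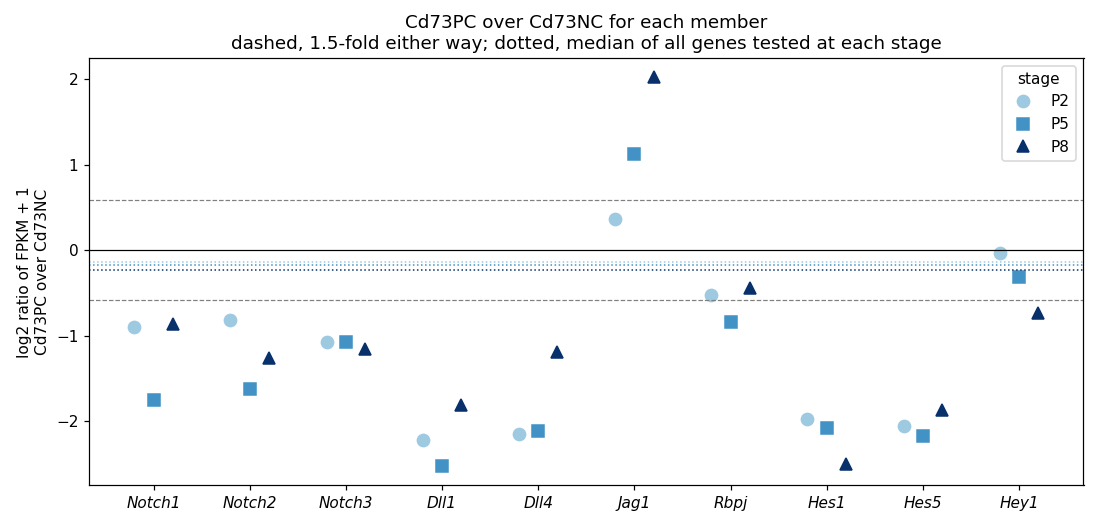
Log2 ratio of FPKM + 1, Cd73PC over Cd73NC, for each member at P2, P5 and P8, with the 1.5-fold limits (dashed) and the medians of all genes tested (dotted). Dll1, Hes1 and Hes5 lie at -1.82 or lower at all 3 stages, Hey1 goes from -0.03 at P2 to -0.74 at P8, and Jag1 is above 0 at all 3 stages, reaching 2.02 at P8.

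Over time within a fraction, the members also moved mostly one way. In Cd73PC, 9 members were lower at each step from P2 to P5 to P8, and Jag1 was higher at each step, as were 40.9% and 19.7% of the 12135 genes with FPKM 1 or more in one of these libraries. Of the 9, 8 were past 1.5-fold lower at P8 than at P2, beside 25.7% of all genes tested, and Notch2 was within it (log2 ratio -0.32), as was Rbpj after quantile normalization (-0.55, against -0.74 without). Bounds of Notch2 and Notch3 in Cd73PC overlapped between P2 and P5. In Cd73NC, 7 members were lower at each step, Notch1 and Notch2 were highest at P5, and Jag1 was higher at each step. There, bounds of Jag1 and of Hey1 overlapped between P5 and P8, and those of Notch3 between P2 and P5. The shares of all 12841 genes that were lower and higher at each step were 31.3% and 24.1% in Cd73NC. In Cd73NC, 8 members were past 1.5-fold lower at P8 than at P2, beside 24.0% of the 12750 genes tested that were lower and 21.6% that were higher. Notch2 (log2 ratio 0.12) and Jag1 (0.36, and 0.71 with a pseudocount of 0.1) were within 1.5-fold.

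Before birth, 3 members were past 1.5-fold. From E15 to E18, 7 were within 1.5-fold, Notch3 (log2 ratio -0.97) and Jag1 (-0.91) were lower and Dll1 (0.75) was higher, beside 3.47% of the 12626 genes tested that were lower and 7.60% that were higher. Jag1 at E18 was 25.8% of its E15 level without the added 1. From E18 to P2 Cd73NC, 8 of the 9 members tested were within 1.5-fold and Notch3 was lower (-0.59, and -0.39 after quantile normalization, which took Hes5 from -0.54 to -0.71), where 13.3% of 12554 genes were lower and 5.47% were higher. Jag1 was under FPKM 1 in both libraries and was not tested there. P2 Cd73PC was a different picture: 7 members were past 1.5-fold lower than at E18, from Notch1 (-0.62, and -0.56 with upper-quartile scaling) to Hes5 (-2.60), and 0 were higher, where 30.2% of 12734 genes were lower and 14.7% were higher. Notch2 (-0.74) was within 1.5-fold there after quantile normalization (-0.26). Jag1 (0.55) was within it with bounds apart, and was past it after quantile normalization (0.81) and with a pseudocount of 0.1 (1.17). Stage and sorting change together between E18 and P2 and cannot be told apart.

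The other genes of the pathway were followed in a list of 71 genes, ordered by role. Of those tested, 25 of 66 were past 1.5-fold lower in Cd73PC at P2, 31 of 64 at P5 and 32 of 64 at P8, and 8, 2 and 4 were higher. These are 37.9%, 48.4% and 50.0% lower, to be read beside the 25.0%, 27.0% and 31.3% of all genes tested. The higher calls are 12.1%, 3.1% and 6.25%, beside 14.5%, 12.3% and 13.0% of all genes tested. The median log2 ratio of the list was -0.32, -0.50 and -0.58 at P2, P5 and P8. In all, 19 of the 68 genes with FPKM 1 or more in a sorted library, or 27.9%, were lower at all 3 stages, and 0 were higher at all 3, where 13.1% and 5.85% of all genes were.

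Among the other receptors and ligands, the ligand-like genes Dll3 and Dner were lower at all 3 stages. Dll3 had log2 ratios of -1.57, -2.82 and -2.38 at P2, P5 and P8, with 62.1 FPKM in P5 Cd73NC and 7.93 in P5 Cd73PC. Notch4, a receptor known from vessels, stayed at or below 1.26 FPKM in all 8 libraries. Of the enzymes that put sugars on the receptor, Lfng, the lunatic fringe glycosyltransferase, had the lowest log2 ratios, -1.97, -2.52 and -2.60. Poglut1, which adds glucose to the receptor's repeats, was lower too, between -0.83 and -1.07. The fringe gene Rfng and the fucosyltransferase gene Pofut1 were within 1.5-fold at each stage.

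Of the machinery that many other pathways share, 10 genes of receptor cleavage were tested, and 2, 4 and 2 were lower at P2, P5 and P8, near the background of 25.0%, 27.0% and 31.3%. The gamma-secretase genes Psen2, Aph1a, Aph1c and Psenen were within 1.5-fold at all 3 stages. Aph1b was the one of this group that was lower throughout (-0.59, -1.11 and -0.96). Of the 6 genes for ligand endocytosis, Mib1, Mib2 and Epn2 were within 1.5-fold at each stage. Of 8 co-activator genes, 1, 4 and 3 were lower at P2, P5 and P8, against the same background. At these stages 2, 0 and 2 were higher, beside 14.5%, 12.3% and 13.0% of all genes. The Mastermind genes Maml1, Maml2 and Maml3 were within 1.5-fold at P2 and lower at P5 (-0.60, -0.71 and -0.61). At P8, Maml2 (-1.17) and Maml3 (-0.82) were lower and Maml1 (-0.01) was not. The acetyltransferase gene Kat2a was lower at all 3 stages, between -1.19 and -1.27. Its paralog Kat2b was higher at P2 (1.06) and P8 (0.93) and within 1.5-fold at P5 (0.42), so the pair lay on opposite sides.

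Of the 14 co-repressor genes tested at each stage, 4, 6 and 6 were lower in Cd73PC and 3, 1 and 1 were higher, where 25.0%, 27.0% and 31.3% of all genes were lower and 14.5%, 12.3% and 13.0% were higher. The Groucho family, which Hes proteins recruit, was split. Of its genes, Tle4 was lower at P2 (-0.81) and P5 (-0.73) and within 1.5-fold at P8 (-0.02). Tle1 (-1.16, -1.52 and -2.19) and Tle3 (-1.27, -2.39 and -2.50) were lower at all 3 stages, as was Fhl1, while Tle2 was higher at P2 and P5 (2.03 and 1.52) and lower at P8 (-1.15). The FPKM of this gene was 0.728 against 6.05 in Cd73NC and Cd73PC at P2, 2.64 against 9.45 at P5 and 12.1 against 4.88 at P8. The reversal at P8 thus lay mostly in Cd73NC, where Tle2 was higher at each step. Rbpjl, a relative of Rbpj, is listed at 0 in 7 libraries and at 0.00193 FPKM in P8 Cd73PC.

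Among 11 genes that dampen the signal or turn the receptor over, 5, 5 and 6 were lower, against 25.0%, 27.0% and 31.3% of all genes. Nrarp, a feedback inhibitor that Notch itself switches on, had log2 ratios of -1.64, -2.00 and -1.95 at the 3 stages, and its FPKM was 82.4 in Cd73NC and 25.8 in Cd73PC at P2, and 20.5 and 4.55 at P8. The ubiquitin ligase genes Dtx1, Dtx3l, Dtx4 and Fbxw7 were lower at all 3 stages, between -0.72 (Dtx3l at P8) and -2.56 (Dtx1 at P8). Numb, which blocks the receptor in one daughter cell, was within 1.5-fold at each stage (-0.05, -0.08 and 0.09). Its relative Numbl was higher in Cd73PC at P2 (0.83) and lower at P8 (-0.84).

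The genes listed as other targets were lower in Cd73PC almost throughout, 7 of 8 tested at P2 and 6 of 7 at P5 and P8 (all genes, 25.0%, 27.0% and 31.3%). Whether Notch drives each of them, Hes6 included, was not tested. Hes6 had log2 ratios of -1.36, -1.42 and -1.58. Hey2, with the motif match shown earlier, had -1.36, -1.81 and -1.07, and Heyl had -1.79, -1.89 and -0.98. Hey2 and Heyl were thus lower at P2, where their relative Hey1 was even between the fractions. Sox9 and Ccnd1, a glial and a cell cycle gene that other inputs also drive, were lower at all 3 stages, with Ccnd1 at 1095 FPKM in P2 Cd73NC and 272 in P2 Cd73PC.

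**Figure D4:**
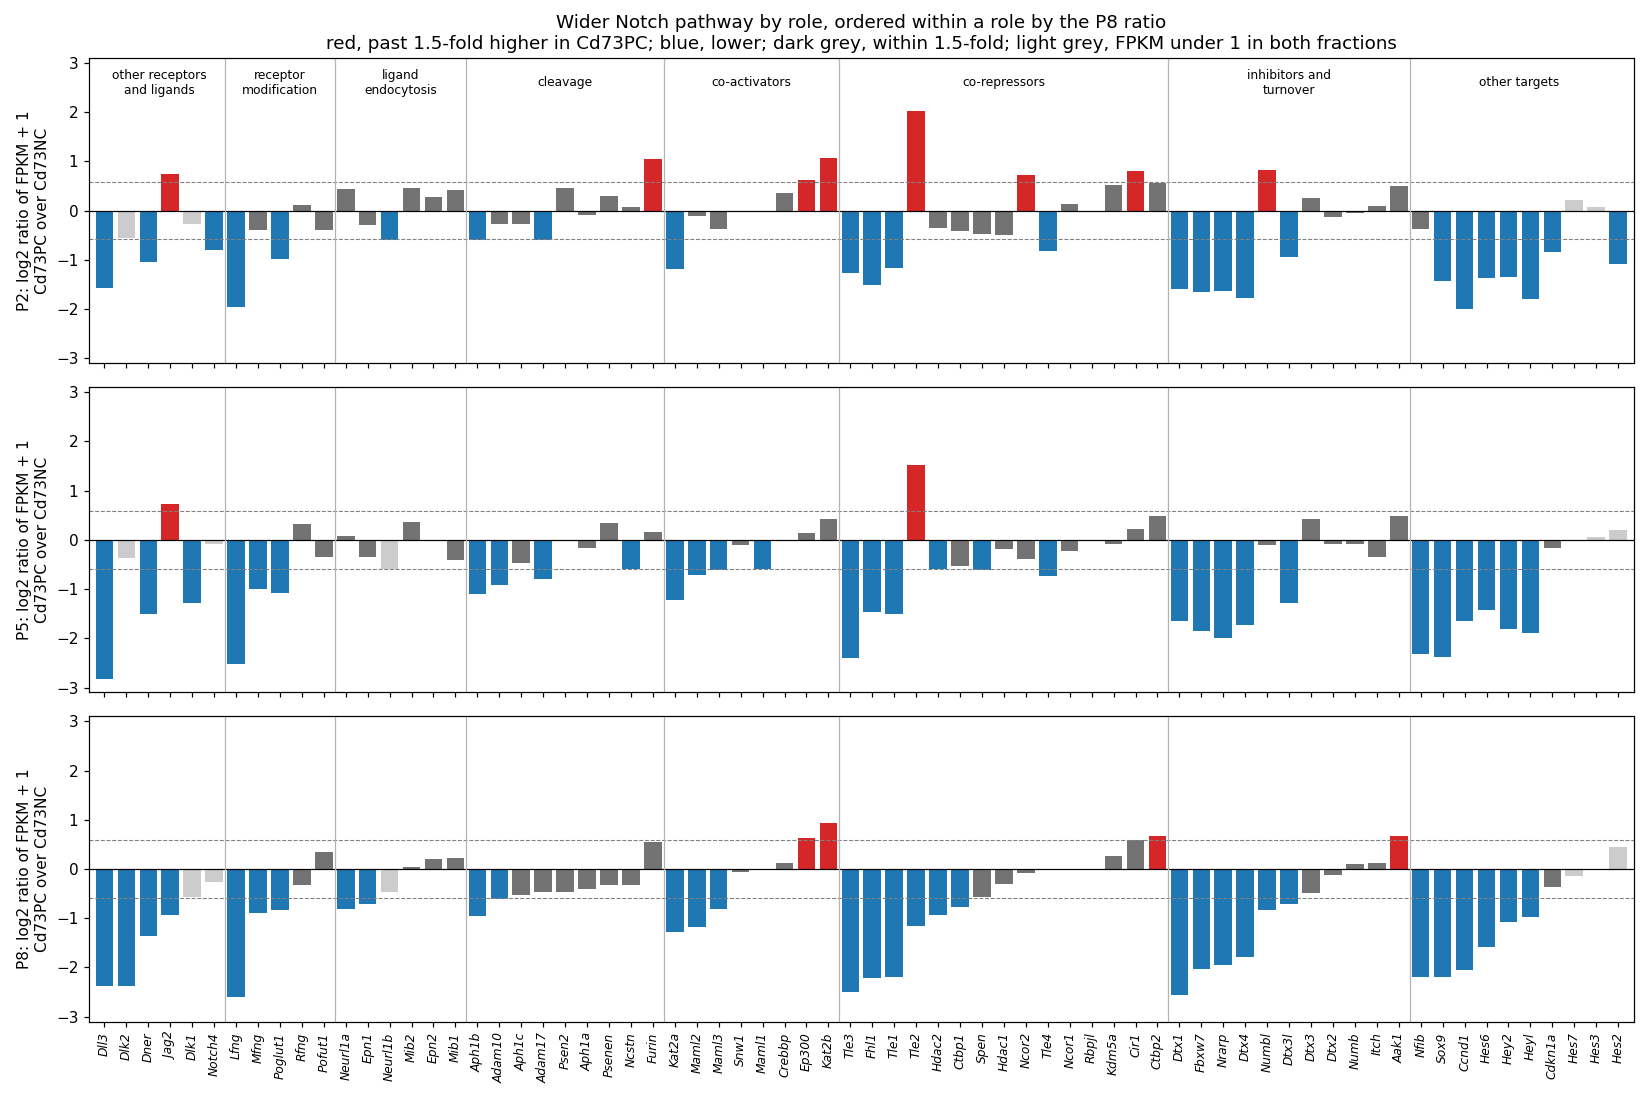
Log2 ratio of FPKM + 1, Cd73PC over Cd73NC, for 70 of the 71 further pathway genes by role at P2, P5 and P8 (bars, blue past 1.5-fold lower, red higher, light grey under FPKM 1 in both fractions). Blue bars number 25, 31 and 32, red bars 8, 2 and 4, and the genes listed as other targets are blue or grey.

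Proneural genes, some of which Hes and Hey proteins repress, and fate factors listed with them were mostly lower in Cd73PC as well. The fate factors in this list are Otx2, Foxn4 and Olig2. Of the 10 in the list, 6 of 9 tested were lower at P2, 8 of 10 at P5 and 7 of 8 at P8, with 25.0%, 27.0% and 31.3% of all genes lower. Neurod1, a factor that rods also use, lay on the other side, past 1.5-fold higher at P2 (1.76) and P8 (1.84), and Otx2 was higher at P2 (1.15) and lower at P5 (-0.79) and P8 (-0.64).

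Most genes of progenitors and Müller glia were also lower in Cd73PC. Of 8 progenitor genes, 7 of 8 tested were lower at P2, 6 of 8 at P5 and 6 of 7 at P8, beside 25.0%, 27.0% and 31.3% of all genes. Sox2 in Cd73PC was 25.9%, 20.0% and 18.0% of its Cd73NC level, while Rax was at 114%, 88.5% and 243%. Of the 10 Müller glia genes, 7 of 9 tested were lower at P2, 8 of 9 at P5 and 9 of 10 at P8. Dkk3 was at 24.2%, 16.3% and 12.6%, while Clu was at 724%, 165% and 149%. Hes1 was at 24.1%, 20.3% and 12.6%. The summed FPKM of the progenitor list in Cd73PC ranged from 355 to 448 and in Cd73NC from 877 to 1349, and that of the Müller glia list from 530 to 687 and from 1516 to 2097. Rax alone gave 198 of the 355 FPKM of the progenitor list in P8 Cd73PC. No gene of either list was at 0 in any library. Of the 10 cell cycle genes, 10 of 10 tested were lower at P2, 9 of 10 at P5 and 7 of 9 at P8, against the same background. Their sum in Cd73NC dropped from 1050 at P2 to 242 and 71.4 at P5 and P8. Astrocyte and microglia genes differed at P2, where 4 of 4 and 7 of 7 tested were higher in Cd73PC, beside 14.5% of all genes. Their summed FPKM in P2 Cd73PC was 895% and 585% of that in P2 Cd73NC. At P5 and P8, 5 and 5 of 5 astrocyte genes and 3 and 2 of 7 microglia genes were lower, and 0 were higher. The part of these cell types in the members' differences was not tested.

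**Figure D5:**
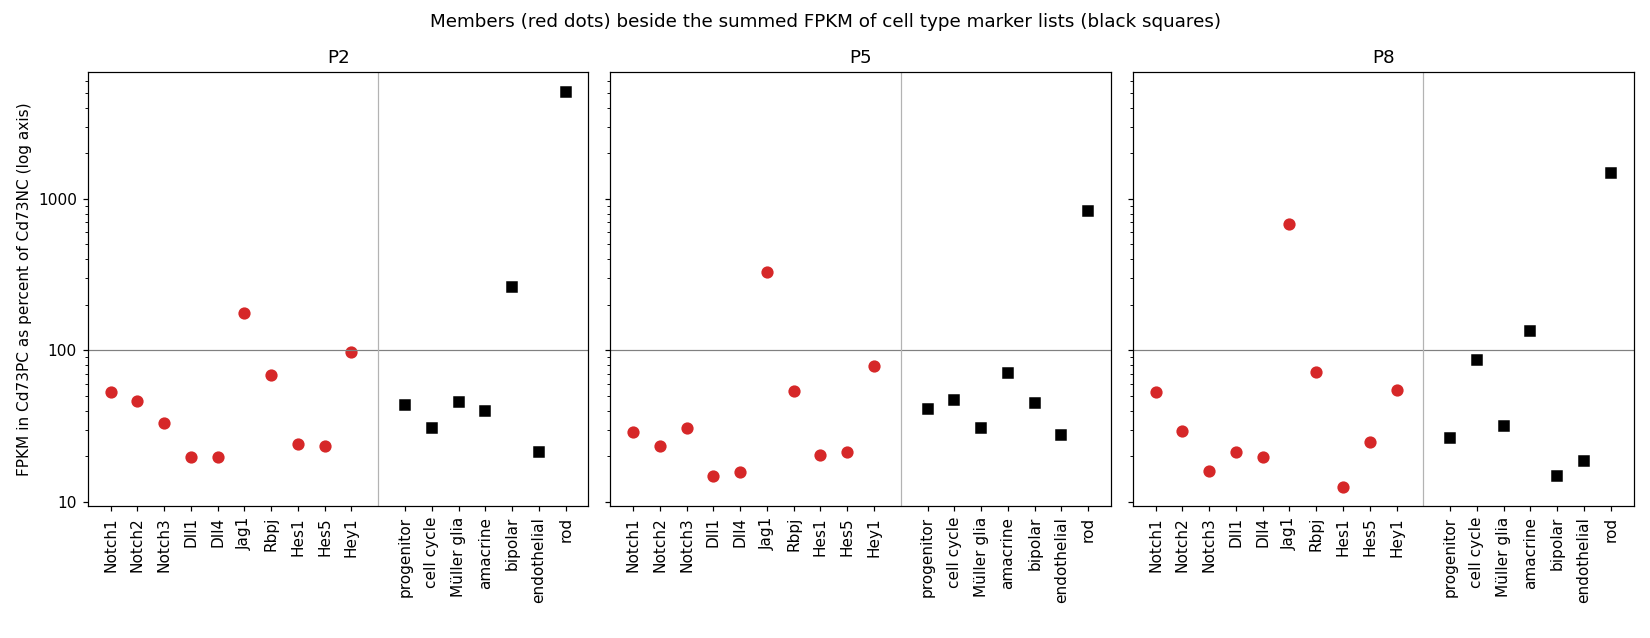
FPKM in Cd73PC as a percent of Cd73NC at P2, P5 and P8 (log axis, line at 100) for each member (red dots) and for the summed FPKM of marker lists (black squares). At P8 Jag1 (686%) is the member nearest to the rod list, while Hes1 (12.6%), Notch3 (16.1%), Dll4 (19.7%), Dll1 (21.4%) and Hes5 (25.0%) lie below the progenitor (26.3%) and Müller glia (31.8%) lists.

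To see which members ran together, log2(FPKM + 1) was centred on its mean over the 8 libraries, and the root mean square difference between genes was taken as the measure of likeness. Among the members, the closest pairs were Rbpj and Hey1 (0.30), Hes1 and Hes5 (0.38), and Dll1 and Hes5 (0.42). The farthest were Dll4 and Jag1 (2.23). Hes5 thus lay near both another target and a ligand. Among 12337 genes with a mean FPKM of 1 or more, the 3 most like Notch1 were Litaf, Clic4 and Tox3 (0.21 to 0.24), and the 3 most like Hes1 were Gjc1, Fxyd6 and Id1 (0.19 to 0.21). For Hes5 they were Fam69c, Tgif2 and Zfp36l1 (0.25 to 0.27), and for Hey1 2810410L24Rik, Nmt2 and Aida (0.11 to 0.17). Dll1 was most like Cdh20, Tbx3 and Etv5 (0.17 to 0.25), and Dll4 most like Grb10, Cdca7l and Rbfox2 (0.23 to 0.25). The nearest genes to Jag1 were Tmem27, Phlpp2 and 9630033F20Rik (0.22 to 0.24). For Notch2 they were D8Ertd82e, Col11a1 and Bdh2 (0.12 to 0.14), and for Notch3 Plekhg2, Plk3 and Esyt1 (0.14 for each). These lists describe 8 libraries that share the same sorts, and they depend on the pseudocount. With 0.1 in place of 1, 0 of the 3 genes stayed on the list of Dll4, 1 of 3 on those of Notch3, Jag1, Hes1 and Hes5, and 2 of 3 on those of Notch1, Notch2, Dll1 and Hey1.

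Some members share their place in the genome with another transcript. In the NCBIM37 annotation, Notch1, Notch3, Dll1, Dll4 and Hes5 share exon bases with a gene of the opposite strand, and the protocol has no step that marks strand, so reads of the 2 cannot be told apart. Of those partners, Gm14207, which lies opposite Dll4 with 214 shared bases, had an entry in the files, with FPKM between 0.104 and 12.0.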

How the data were processed

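RNA of 8 libraries, 1 per condition, was read as 36-base single-end tags. The authors aligned the reads to NCBI37/mm9 with TopHat 2.0.8b and estimated gene levels with Cufflinks 2.1.1, and they deposited FPKM with lower and upper bounds for 23021 entries per library (versions per the submitters' processing notes, which also name CASAVA 1.8.2 and bcl2fastq 1.8.4). FPKM is divided by transcript length and mapped fragments. Read counts and absolute depth were not used here.

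From these values, 798 small RNA entries were left out, entries of the same symbol were summed, and failed estimates (4 to 10 per library) were taken as missing, which left 21826 genes. Groups followed the labels. Log2 ratios used FPKM + 1, genes with FPKM 1 or more in either library were tested against 1.5-fold, and bounds of a pair were compared for overlap. With 1 library per group, no p-value was computed.

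Named genes were all members, the wider pathway genes past 1.5-fold in the same direction at all 3 stages or in opposite directions at 2 stages, and the 3 genes most like each member, of which some results are not reported here. Others named were chosen after their values were seen. The members and lists were chosen with earlier results of these data known.

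Alternatives were a pseudocount of 0.1, no filter on low values, upper-quartile scaling, quantile normalization, a 2-fold threshold, bounds apart, small RNAs kept and entries not summed. The scripts (Python 3.11.15, numpy 2.4.6, pandas 2.3.3, matplotlib 3.10.9) were tested on simulated data. Annotation came from GENCODE on NCBIM37, and the 10 members lay on the same chromosome and overlapped there. Starts were made 1-based.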

Additional observations from a re-analysis of the deposited data

Results flagged for a closer look

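Beyond the 10 members, 4 genes of the pathway and proneural lists were past 1.5-fold in opposite directions at different stages, between single libraries, and the difference between stages was not tested. Jag2, the second Jagged ligand, had log2 ratios of Cd73PC over Cd73NC of 0.74 at P2, 0.72 at P5 and -0.93 at P8. The co-repressor gene Tle2 had 2.03 at P2, 1.52 at P5 and -1.15 at P8. Numbl, a relative of Numb, had 0.83 at P2 and -0.84 at P8. Otx2, a photoreceptor and bipolar cell factor, had 1.15 at P2, -0.79 at P5 and -0.64 at P8. Over the same stages, the summed FPKM of the 10 bipolar genes was 31.5 in Cd73NC and 83.2 in Cd73PC at P2, and 1655 and 246 at P8. Of the 83.2, Otop3 and Pcp2 gave 35.7 and 25.9, while Bhlhe23 was at 0 and Vsx1 and Grm6 at 0.0122 and 0.0198. At P8, 9 of the 10 were lower in Cd73PC, beside 31.3% of all genes, and Otop3 was higher. The part of bipolar cells in the ratios of these 4 genes was not tested.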

How the results depend on the processing

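Of 80 member ratios, the one that changed sign under a scaling or pseudocount was Hey1 at P2 (0.06 with upper-quartile scaling and 0.04 after quantile normalization). After quantile normalization, Hey1 at P8 (-0.35), and Rbpj from P2 to P8 in Cd73PC (-0.55), Notch2 from E18 to P2 Cd73PC (-0.26) and Notch3 from E18 to P2 Cd73NC (-0.39) were within 1.5-fold, while Jag1 from E18 to P2 Cd73PC (0.81) and Hes5 from E18 to P2 Cd73NC (-0.71) were past it. With upper-quartile scaling, Notch1 from E18 to P2 Cd73PC (-0.56) was within it. With a pseudocount of 0.1, Jag1 was past it at P2 (0.72), from P2 to P8 in Cd73NC (0.71) and from E18 to P2 Cd73PC (1.17). Neither scaling moved a member's ratio by over 1.5-fold, and with a pseudocount of 0.1, 8 moved by more, all of Notch3, Dll4 or Jag1, and the median log2 ratio of the members at P8 was -1.84. Of the wider list, 4 genes were higher in Cd73PC at P5 under upper-quartile scaling, and 13 at P2 and 7 at P8 under quantile normalization. With a 2-fold threshold, 5, 8 and 7 members were called between the fractions at P2, P5 and P8, and 5 were lower at all 3 stages. At that threshold, 0 members were called from E15 to E18 and 0 from E18 to P2 Cd73NC. The wider list then had 3, 1 and 0 genes higher at P2, P5 and P8, and 17, 21 and 19 lower. Shares of all genes past 2-fold, or called under either scaling, are not given here, so these counts stand without a background. Without the filter on low values, 14.4%, 15.5% and 18.6% of all genes were lower at P2, P5 and P8. The 2 fractions of a stage came from the same retinas, but a fraction effect with stage as a block, which would take the 3 stages as replicates, was not run. With 1 library per condition, no library could be left out within a condition. As implied by the bounds, the fewest fragments behind a member's value were 29, for Dll4 in P8 Cd73PC.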
